A study of Mus musculus with 4 samples.

Results

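The genes of oxidative phosphorylation (OXPHOS) were chosen by symbol alone, as every gene whose name begins with Nduf, Uqcr, Cox4 to Cox8, Atp5, mt-Nd, mt-Co, mt-Cytb or mt-Atp, without pseudogene symbols. This gave 102 of the 32285 genes in the files, 89 encoded in the nucleus and 13 in mitochondrial DNA. The nuclear members were 36 complex I subunits, 8 complex I assembly factors, 8 genes of complex III, 20 of complex IV and 17 of complex V. The mitochondrial members were 7 genes of complex I, 1 of complex III, 3 of complex IV and 2 of complex V. The name pattern therefore took in 8 genes that assemble complex I and are not part of it.

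MDSCs (myeloid-derived suppressor cells, immature myeloid cells that restrain T cells) were grown in vitro from mouse bone marrow, of WT or β2AR-/- mice, with IL-6 and GM-CSF at 40 ng/ml each. All 4 cultures received both cytokines, and either 10 µM isoproterenol (ISO), an agonist of β-adrenergic receptors, or PBS. Live CD11b+ cells were sorted on day 4 and sequenced on the 10X Genomics platform, with 1 library per group: WT+PBS, WT+ISO, β2AR-/-+PBS and β2AR-/-+ISO. By the study's methods the C57BL/6J mice were purchased and the β2AR-/- mice, on a C57BL/6 background, were made at the authors' institute, so the source of the mice and the genotype cannot be told apart. The mice were 6 to 10 weeks old. The methods speak of both sexes and the reporting summary of females, and which animals gave each culture is not stated in the sources used here. The treatment field of the labels names isoproterenol for every sample. The sample titles and the study place it in the ISO libraries alone, and the titles were followed.

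Oxidative phosphorylation passes electrons from NADH through complexes I, III and IV to oxygen and pumps protons, and complex V (ATP synthase) makes ATP as protons flow back. Most subunits are made in the cytosol from nuclear genes and imported, while a small core of hydrophobic subunits of complexes I, III, IV and V is made inside the mitochondrion from long polycistronic transcripts of mitochondrial DNA. Neutrophils are known to rely mainly on glycolysis, and their mitochondria become sparse as they mature, whereas macrophages and dividing progenitors keep more of them.

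After the filter on cells, the libraries held 2210, 2264, 2790 and 2039 cells in the order WT+PBS, WT+ISO, β2AR-/-+PBS and β2AR-/-+ISO, which is used for all lists of values that follow. They held between 19357824 and 29400468 UMIs (unique molecular identifiers, each standing for 1 captured transcript), with medians of 7484 to 10252 UMIs per cell, and no cell barcode occurred in more than 1 library. The myeloid markers Itgam, Ptprc, Lyz2 and others summed to 7579 to 9146 CPM in every library, whereas the erythroid markers summed to 0.902 CPM or less. CPM stands for UMIs per 1000000 UMIs of the library or cluster. Xist was present at 359 to 389 CPM in each library, the Y-linked genes together had at most 7 UMIs in any library, and Nnt, which is truncated in C57BL/6J mice, had at most 32 UMIs. These markers therefore did not separate the 2 genotypes, and the sex-linked genes stood as in female cells in each library. Because each group had 1 library, no test was made, and the 95% intervals cover counting error only. Nothing in the data gives the spread between cultures.

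OXPHOS transcripts took 4.58% to 4.91% of all UMIs. The nuclear members summed to 21498, 21406, 20853 and 19456 CPM, so that the library labelled β2AR-/-+ISO was lowest. The mitochondrial members summed to 27099, 24433, 28280 and 28092 CPM, and here WT+ISO was lowest. The number of nuclear UMIs per mitochondrial UMI was accordingly 0.793, 0.876, 0.737 and 0.693. Of the 102 members, 97 had at least 100 UMIs over both libraries in every comparison, and 3 nuclear members had no UMI at all: Cox7b2, Cox8b and Cox8c. A count of 0 allows up to 3 UMIs in a library, by counting error alone.

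To compare cell types, cells of the 4 libraries were clustered together, which gave 8 clusters. The members, other mt- genes, complex II, cytochrome c genes, other assembly factors and regulators of mitochondrial gene expression were left out of the clustering. Genes of the mitochondrial and cytosolic ribosomes, the TCA cycle and glycolysis could enter it. Cluster 5 was azurophil-granule neutrophil progenitor-like (614 cells, led by Mpo, Ctsg and Elane). Clusters 6 and 3 were specific-granule neutrophil-like (870 cells led by Ncam1 and Camp, and 1829 led by Scrg1 and Ltf). Cluster 1 was mature neutrophil-like (1500 cells, Retnlg and Mmp9), and cluster 0 macrophage-like (2033 cells, Mrc1 and C1qb). Detected markers of dendritic cells and monocytes were also raised on average in cluster 0, though less than those of macrophages. Whether the mix of cells inside cluster 0 differed between libraries was not tested. Values within this cluster, or at fixed cluster shares, do not hold that mix fixed. Clusters 4 (829 cells, led by Serpina3g) and 2 (1549 cells, led by Gpnmb) had too few leading markers for a name, and cells of cluster 2 had a median of 2778 UMIs. The dendritic cell-like cluster 7 held 79 cells (0.849%) and was left out of ranges across clusters. The clusters took different shares of each library. Macrophage-like cells made up 20.3%, 12.8%, 28.9% and 24% of cells, and azurophil-granule progenitor-like cells 7.38%, 10.5%, 4.80% and 3.87%.

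The nuclear members differed widely between clusters, and the order of clusters was the same in every library. The summed level was 26709 CPM in the azurophil-granule progenitor-like cluster 5, 26058 in cluster 4, 22758 in the macrophage-like cluster 0, 19310 in cluster 2, 17249 in cluster 6, 12237 in cluster 3 and 10799 in the mature neutrophil-like cluster 1. The log2 range from highest to lowest was 1.31 over all cells and between 1.25 and 1.33 in the single libraries. Among neutrophil-like cells, the level therefore stepped down from azurophil-granule to specific-granule to mature cells in each library. Neighbouring clusters 5 and 4 lay closest, with libraries from 25626 to 27290 and from 25143 to 26355 CPM, and these overlapped. The range was 0.92 at a clustering resolution of 0.2 and 1.60 at 1.0.

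**Figure D1:**
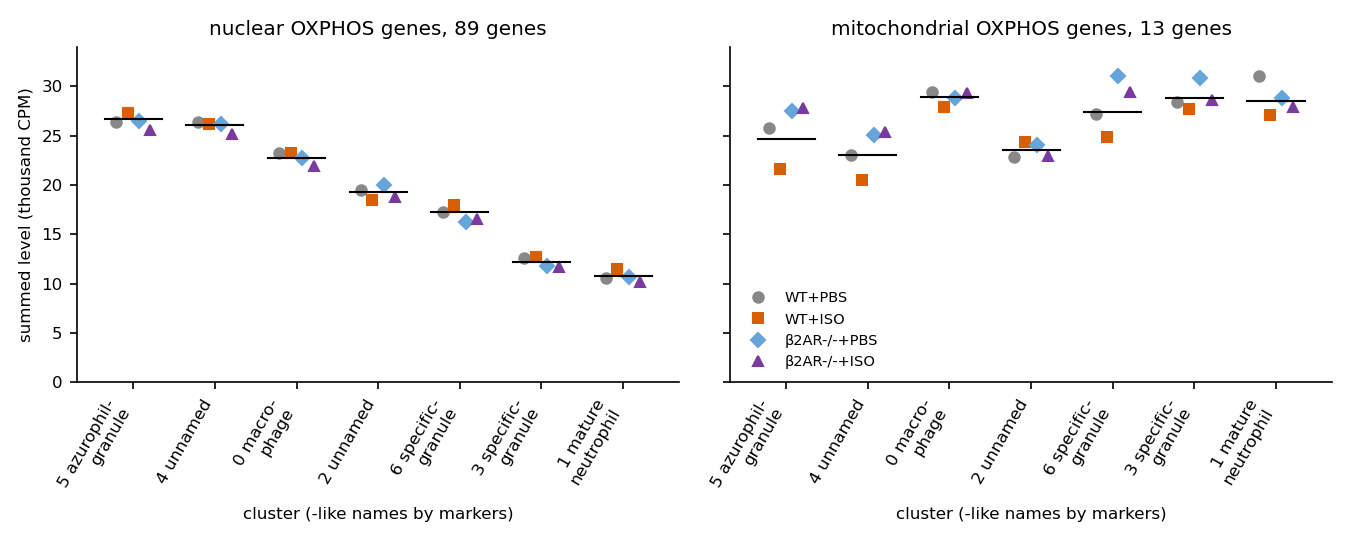
Summed level of the 89 nuclear (left) and 13 mitochondrial (right) members, in units of 1000 CPM, in 7 clusters ordered by the nuclear level. Points are the 4 libraries and black lines the value over all cells. Nuclear levels step down from cluster 5 to cluster 1 in each library, while mitochondrial levels stay between 20520 and 31068 CPM.

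Each nuclear complex followed this order closely. Nuclear complex I subunits ran from 7941 CPM in cluster 5 to 3277 in cluster 1 (2.42-fold), complex III from 2764 to 1002 (2.76-fold), complex IV from 7345 in cluster 4 to 3186 (2.31-fold), and complex V from 8523 in cluster 4 to 3217 (2.65-fold). Within complex I, the 7 nuclear core subunits, which carry the flavin and iron-sulfur centres, spanned 3.41-fold and the 29 supernumerary subunits, which surround the core, 2.33-fold. The 8 assembly factors spanned 3.35-fold. Of the 83 nuclear members with at least 400 UMIs, 42 were highest in cluster 5 and 26 in cluster 4, and 50 were lowest in cluster 1 and 28 in cluster 3. The shares of all genes highest or lowest in these clusters were not counted, so these counts are not read as particular to the members. The median log2 range of the 83 members was 1.59, beside 1.71 for all 9559 genes with at least 400 UMIs, so that the spread of single members was near that of genes at large. Complex II, which was not among the members, spanned 2.35-fold, the mitochondrial ribosome 3.39-fold, and the cytosolic ribosome 4.12-fold, with cluster 5 or 4 highest in each. Median UMIs per cell also went with the nuclear level over the 28 cluster and library sums (Spearman's rho 0.77), and the part of depth in the pattern was not tested.

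The mitochondrial members were spread less over these clusters, and in no fixed order. Their sum ran from 28901 CPM in cluster 0 to 23091 in cluster 4, a log2 range of 0.32, and from 0.36 to 0.44 in the single libraries. Cluster 4 or cluster 2 was lowest in each library, while cluster 1, 0 or 6 was highest. Nuclear per mitochondrial UMIs ran from 0.379 in cluster 1 and 0.424 in cluster 3 to 1.08 in cluster 5 and 1.13 in cluster 4. The lowest library of clusters 4 and 5 (0.990 and 0.922) lay above the highest of clusters 1 and 3 (0.424 and 0.459). The mitochondrial range depended on how cells were weighted. It was 0.83 when each cell counted the same, 0.99 at a resolution of 1.0 and 0.41 without the cap on the mitochondrial share of a cell. The median cell of cluster 2 had 1.26% mitochondrial UMIs, beside 2.28% to 2.86% in the other 6 clusters of this size.

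Single mitochondrial genes did not share 1 pattern. mt-Cytb, the only complex III subunit made in the mitochondrion, was highest in cluster 1 (3071 CPM) and lowest in cluster 4 (1967). mt-Nd1, a core subunit of complex I, was highest in cluster 0 (1282 CPM) and lowest in cluster 1 (689). mt-Nd6, the complex I subunit read from the opposite strand of the mitochondrial genome to all the others, ran from 20.3 CPM in cluster 4 to 5.03 in cluster 1, a log2 range of 2.01 on 1406 UMIs, with cluster 4 highest in every library. The other mitochondrial genes had smaller ranges, with a median of 0.62 over the 13. Over the 28 cluster and library sums, mt-Nd1 and mt-Nd6 went with the summed nuclear members (Spearman's rho 0.83 and 0.77), whereas mt-Cytb, mt-Co1 and mt-Nd4 went against them (-0.79, -0.63 and -0.63). These sums share libraries and total counts, and the values are descriptions. In the RefSeq annotation of GRCm38.p6, mt-Nd6 spans 13552 to 14070 of the mitochondrial genome (MT) and, read from the opposite strand, overlaps mt-Nd5 (11742 to 13565) with its 3′ end. On the same strand, the end of mt-Atp8 (7766 to 7969) overlaps the start of mt-Atp6 (7927 to 8607), and the end of mt-Nd4l (9877 to 10173) that of mt-Nd4 (10167 to 11544). How UMIs were split between overlapping genes or strands is not given in the sources used here, so values of mt-Atp8, mt-Nd4l and mt-Nd6 are uncertain.

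Among members with at least 400 UMIs, those with the widest ranges over clusters were Cox4i2, Ndufaf4, Ndufaf6, Atp5g1 and Ndufab1. Cox6b2, with 397 UMIs, had a log2 range of 4.71, from 155 UMIs in cluster 5 to only 3 in cluster 1. Cox4i2, the isoform of complex IV subunit 4 known from lung and from low oxygen, had 453 of its 605 UMIs in the macrophage-like cluster 0, at 14.4 CPM, and 1 UMI in cluster 6. Ndufaf4, a complex I assembly factor, ran from 34.6 CPM in cluster 5 to 0.947 in cluster 3. Ndufaf6, another assembly factor, ran from 21.1 to 1.46 CPM between the same clusters. Ndufab1, the acyl carrier protein that serves both complex I and mitochondrial fatty acid synthesis, ran from 281 to 38.6 CPM between them as well. Over all cells, the 5 members of widest range were each lowest in a specific-granule neutrophil-like cluster. In WT+PBS alone, the mature neutrophil-like cluster 1 was lowest for Atp5g1, Ndufab1 and Ndufaf6, and in β2AR-/-+ISO for Ndufaf6. Ndufaf6 had only 17 UMIs in cluster 3 and 16 in cluster 1.

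Atp5g1, Atp5g2 and Atp5g3 encode the same membrane subunit c of ATP synthase with different import signals, and their proportions differed between cell types. Atp5g1 made up 47.2% of the UMIs of the 3 genes in cluster 0 (46.0% to 49.1% in the libraries), 46.0% in cluster 5 and 42.9% in cluster 4, but 26% in cluster 3 (22.6% to 28.1%) and 27.4% in cluster 6 (23.5% to 29.8%). Atp5g2 took the larger share there, with 47.9% in cluster 3 and 52.8% in cluster 6. The libraries of clusters 3 and 6 did not overlap with those of the other 5 clusters for Atp5g1 or Atp5g2. Between whole libraries the Atp5g1 share moved little, at 43.9%, 43.3%, 42.6% and 42.1%.

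**Figure D2:**
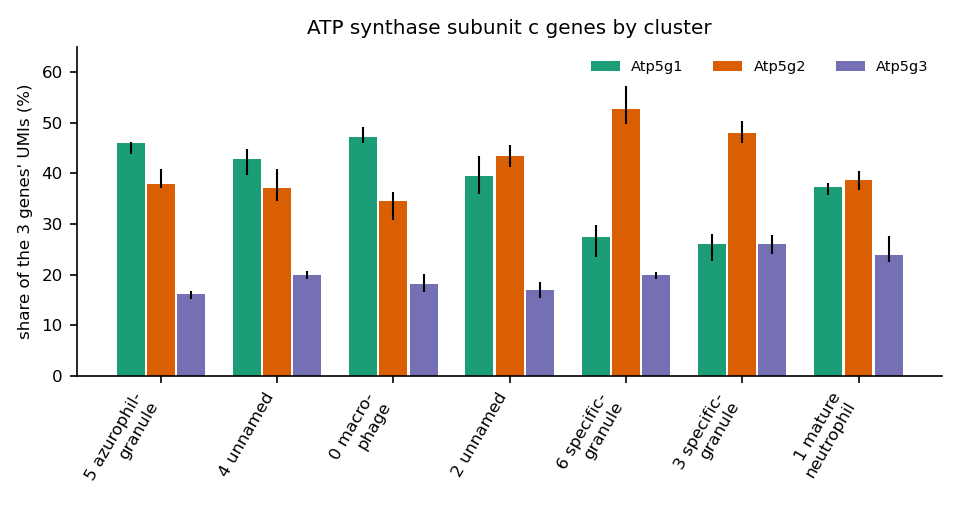
Share of Atp5g1, Atp5g2 and Atp5g3 in the UMIs of the 3 subunit c genes (percent) by cluster. Bars give the share over all cells and black lines the lowest and highest of the 4 libraries, with Atp5g1 at 26% and 27.4% in clusters 3 and 6 and at 37.4% to 47.2% elsewhere.

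Of the 89 nuclear members, 73 had a promoter in the RefSeq table of GRCm38.p6 (78 promoters, the mm10 assembly of the files). In the 250 bases before the start, the NRF1 motif GCATGCGC or its reverse complement GCGCATGC occurred in 8 of the 78 (10.3%), beside 2.26% of all 32851 promoters and 4.68% of those of genes with at least 400 UMIs. The ETS motif CCGGAAG or CTTCCGG occurred in 13 (16.7%, beside 6.91% and 15.1%), and the E-box CACGTG, its own reverse complement, in 7 (8.97%, beside 6.02% and 8.70%). The CRE motif TGACGTCA, its own reverse complement, occurred in 4 (5.13%, beside 1.55% and 2.60%), and CCAAT or ATTGG in 33 (42.3%, beside 33.8% and 35.1%). The ETS and E-box shares lay near those of expressed genes. The NRF1, CRE and CCAAT shares lay above them, for CRE on 4 promoters only, and none of these differences was tested. Promoters of the same gene can overlap, so the single E-box of Ndufa7 and the single CCAAT of Atp5c1 were each counted more than once. The 150 bases before the promoter's start, 5′ to 3′ on the gene's strand, are given for 2 sets of genes. These are the subunit c genes, whose proportions differed between clusters, and Ndufaf4 and Cox7a2l, whose levels differed between genotypes. A promoter's start can lie inside the RefSeq gene span. The stretch of Atp5g3 lies wholly within its gene (chr2:73908447-73912464). That of Atp5g1, with its E-box, lies partly within its gene (chr11:96072793-96075694). Which starts these cells use was not tested. Capitals mark NRF1, ETS and E-box motifs, and overlapping NRF1 matches on both strands form 1 run.
Atp5g1, chr11:96075632-96075781, minus strand: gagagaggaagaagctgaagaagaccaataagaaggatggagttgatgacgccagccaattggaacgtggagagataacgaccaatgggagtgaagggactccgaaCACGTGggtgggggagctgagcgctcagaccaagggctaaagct
Atp5g2, chr15:102671048-102671197, minus strand: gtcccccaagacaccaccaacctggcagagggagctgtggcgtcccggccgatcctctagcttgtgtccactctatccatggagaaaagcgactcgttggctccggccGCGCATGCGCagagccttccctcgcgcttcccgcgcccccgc
Atp5g3, chr2:73911327-73911476, minus strand: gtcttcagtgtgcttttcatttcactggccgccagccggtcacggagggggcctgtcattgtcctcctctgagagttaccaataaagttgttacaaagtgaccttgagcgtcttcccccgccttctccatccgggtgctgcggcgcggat
Ndufaf4, chr4:24897933-24898082, plus strand: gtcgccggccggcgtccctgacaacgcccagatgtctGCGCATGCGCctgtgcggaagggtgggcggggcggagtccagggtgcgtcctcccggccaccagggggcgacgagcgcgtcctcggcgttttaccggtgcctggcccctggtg
Cox7a2l, chr17:83514334-83514483, minus strand: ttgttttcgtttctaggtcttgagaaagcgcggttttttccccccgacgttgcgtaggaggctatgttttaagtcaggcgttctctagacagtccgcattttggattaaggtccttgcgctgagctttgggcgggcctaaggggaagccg
The 5 printed stretches differ in these motifs. Atp5g2 and Ndufaf4 hold an NRF1 match, Atp5g1 holds an E-box, and Atp5g3 and Cox7a2l hold none of the 3 in this stretch. Atp5g3 has an E-box farther upstream, inside the 250 bases counted but outside the 150 printed. Within the 250 bases, Atp5g1 and Atp5g3 therefore both hold an E-box.

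Most tissue isoforms were scarce. Cox6a2, Cox7a1, Cox6b2 and Ndufa4l2, known respectively from striated muscle, from muscle, from testis and from low oxygen, made up at most 0.923%, 0.832%, 1.35% and 0.596% of their families' UMIs in any library. Cox6b2 was not evenly spread. It made up 2.20% of Cox6b UMIs in cluster 5 and 1.64% and 1.70% in clusters 3 and 6, against 0.118% to 0.747% in the others. Cox7a2l encodes SCAF1, known as a factor for joining complexes III and IV, and the function of SCAF1 in these mice was not tested. Cox7a2l took 34.5% to 36.2% of the Cox7a family in clusters 0, 1 and 3 and 16.9% in cluster 5, while Cox7a2 took 82.8% there. Ndufa4l2 had 17, 0, 55 and 38 UMIs, and Cox6a2 had 29, 3, 67 and 25, both lowest in WT+ISO.

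With ISO in WT cells, mitochondrial transcripts were lower and the nuclear sum was nearly level. Of the 13 mitochondrial genes, 12 were lower with ISO than with PBS, with a median log2 ratio of -0.16. The sum of the nuclear members had a log2 ratio of -0.0062 (95% interval -0.011 to -0.00088), which turned to 0.018 under size factors and 0.0078 with clusters at fixed shares, and 37 of the 84 members past the minimum were higher, beside 47.0% of all genes. The median of all genes was -0.016. Of the 97 members, 1 was higher and 3 were lower by at least 1.2 fold, beside 8.40% and 17.0% (25.4% together) of all 10771 genes with this minimum. All genes include many near the minimum of 100 UMIs, where counting error alone can pass the fold, so the shares are not at equal depth.

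The mitochondrial sum was 27099 CPM in WT+PBS and 24433 in WT+ISO, a log2 ratio of -0.15 (95% interval -0.15 to -0.14). Complex I genes stood at 4045 and 3480 CPM (-0.22), mt-Cytb at 2653 and 2299 (-0.21), complex IV genes at 14892 and 13541 (-0.14) and complex V genes at 5509 and 5113 (-0.11). mt-Nd5 and mt-Nd2, both proton-pumping subunits of complex I, were the only ones past 1.2 fold. mt-Nd5 had 218, 178, 221 and 231 CPM in the 4 libraries (log2 -0.30), and mt-Nd2 had 921, 754, 901 and 901 (-0.29). In both, WT+ISO alone stood low. mt-Atp8 had 26.6 and 26.7 CPM.

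Within clusters the mitochondrial sum was lower with ISO in 6 of 7. In the azurophil-granule progenitor-like cluster 5 it was 25816 and 21666 CPM (log2 -0.25), in cluster 1 31068 and 27103 (-0.20) and in cluster 4 23084 and 20520 (-0.17). The unnamed cluster 2 went the other way, with 22881 and 24382 CPM (0.09). With clusters held at the same shares in each library the log2 ratio was -0.088, and with each cell counted the same it was -0.054. The dissociation and stress genes summed to 908, 693, 850 and 858 CPM in the 4 libraries. Of the 9 past the minimum, 7 were lower in WT+ISO than in WT+PBS by at least 1.2 fold, beside 17.0% of all genes. Cell cycle genes were higher (3825 beside 3395 CPM, 16 of 16 genes above the PBS library, beside 47.0% of all genes). Their part in the result was not tested.

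**Figure D3:**
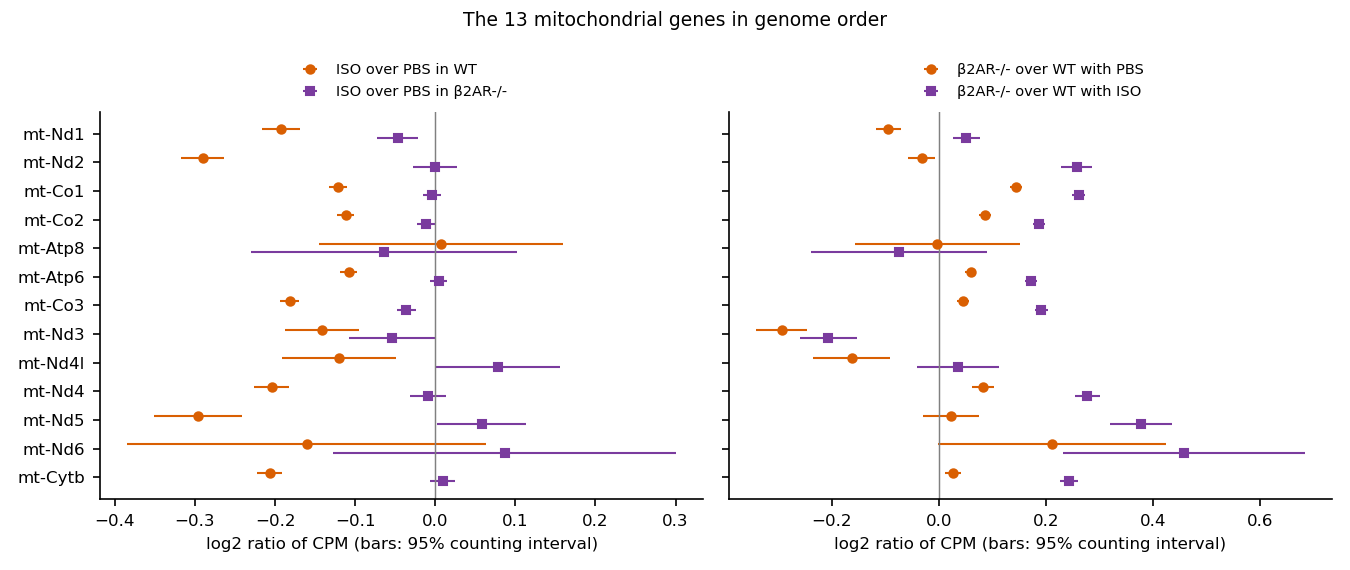
Log2 ratio of CPM for the 13 mitochondrial genes, ISO over PBS in each genotype (left) and β2AR-/- over WT with each treatment (right). Bars are 95% intervals of counting error alone. With ISO in WT, 12 of 13 genes lie below 0, and in the libraries labelled β2AR-/- all lie between -0.064 and 0.087.

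Among nuclear members past the minimum in WT, Cox4i2 had the lowest ratio and Cox6b2 the highest. Cox4i2 had 103 UMIs without and 60 with ISO (4.22 and 2.04 CPM, log2 -1.05), and within the macrophage-like cluster 80 and 28 UMIs (10.6 and 5.21 CPM). The value was -0.49 with clusters at fixed shares. Cox6b2 had 77 and 166 UMIs (3.16 and 5.65 CPM, log2 0.84), with 40 of 77 and 63 of 166 UMIs in cluster 5, where the libraries lay at 10.1 and 10.2 CPM. Its ratio was above 0 in all 4 clusters with at least 20 UMIs, with a median of 0.73 and a range of 0.017 to 1.31. Ndufaf4 stood at 21.4 and 25.5 CPM (0.26) and Ndufaf1, another complex I assembly factor, at 10.7 and 12.6 (0.23). In all 7 clusters the WT+ISO library was higher for Ndufa4, Ndufa5 and Cox8a, which were singled out after their values were seen. That is 3 of the 78 nuclear members with at least 20 UMIs in each cluster, beside 5.0% of all 7205 such genes, and no member was lower in all 7 (3.48% of all genes). Ndufa4, a subunit of complex IV in spite of its name, stood at 455 and 531 CPM.

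With ISO in the libraries labelled β2AR-/-, nuclear members were lower and mitochondrial ones were nearly level when summed over whole libraries. The nuclear sum was 20853 CPM with PBS and 19456 with ISO (log2 -0.10, 95% interval -0.11 to -0.09). Of the 84 nuclear members past the minimum, 4 were higher, beside 38.8% of all 10734 genes, and the median was -0.10, beside -0.039 for all genes. The ribosomal lists stood alike, with 2 of 92 cytosolic ribosome genes (median -0.092) and 7 of 78 mitochondrial ribosome genes (median -0.099) higher. The shift was alike in the complexes: -0.082 for nuclear complex I subunits, -0.11 for complex III, -0.10 for complex IV and -0.11 for complex V. The mitochondrial sum had a log2 ratio of -0.0097 (95% interval -0.015 to -0.0047).

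Few single members differed by much. Of the 97 members, 1 was higher and 3 were lower past 1.2 fold, beside 4.90% and 8.06% (13% together) of all genes. Cox6b2 was higher (2.73 and 3.93 CPM, log2 0.52), and Ndufaf5 (6.41 and 5.06 CPM, -0.34), Ndufaf4 (13.4 and 10.9 CPM, -0.30) and Ndufb6 (133 and 110 CPM, -0.28) were lower. Ndufaf5 modifies a core subunit while complex I is built, and Ndufb6 is a supernumerary subunit of its membrane arm. Within clusters the nuclear sum was lower in 6 of 7, with a median log2 ratio of -0.053 over the 7, and with clusters at fixed shares it was -0.050. The mitochondrial sum was above 0 in 3 of 7, with a median of -0.045, and it was -0.040 at fixed shares. By these measures both lists were lower by similar amounts. In all 7 clusters, 5 nuclear members were lower (Cox5a, Cox5b, Cox7a2, Uqcrh and Uqcrq, named after their values were seen) of 78, and none was higher, beside 1.37% and 1.40% of all 6854 genes. mt-Co3 was lower in all 7 as well. The library with ISO held 3.87% azurophil-granule progenitor-like cells, the cluster with the highest nuclear level, beside 4.80% with PBS, and markers of that cell type were at 3287 and 2525 CPM. Their part in the result was not tested beyond the value at fixed shares.

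The ISO ratios of the 2 genotypes thus stood apart in opposite directions for nuclear and mitochondrial genes. The β2AR-/- ratio minus the WT ratio was 0.14 for the mitochondrial members (95% interval 0.13 to 0.15) and -0.094 for the nuclear ones (-0.10 to -0.086). With clusters at fixed shares these were 0.048 and -0.058, and with each cell counted the same 0.0093 and -0.081. No replicate error can be set against these values.

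To compare genotypes, the libraries labelled β2AR-/- were set against WT under each treatment. With PBS the nuclear sum had a log2 ratio of -0.044 and the mitochondrial sum of 0.062. With ISO they were -0.14 (95% interval -0.14 to -0.13) and 0.20 (0.20 to 0.21). The mitochondrial ratio was above 0 in 5 of 7 clusters with PBS and in 6 of 7 with ISO. It was largest in cluster 5, where WT+ISO had 21666 CPM and the library labelled β2AR-/-+ISO 27801 (0.36), and in cluster 4, with 20520 and 25400 (0.31). With clusters at fixed shares, the nuclear ratios were -0.022 and -0.079 and the mitochondrial ones 0.043 and 0.091. The cap on the mitochondrial share of a cell removed 16 and 33 cells of the WT libraries and 88 and 62 of those labelled β2AR-/-. Without it the mitochondrial ratios were 0.10 and 0.24.

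With PBS, 8 of 97 members were past 1.2 fold, 3 higher and 5 lower, beside 12.4% and 13% (25.4% together) of all 10861 genes. With ISO there were 26, of which 7 were higher and 19 lower, beside 49.1% of all 10645 genes (24.4% higher and 24.7% lower). Of the 84 nuclear members past the minimum, 20 were higher with PBS and 11 with ISO, beside 47.8% and 48.2% of all genes, and the median log2 ratios were -0.058 and -0.17. Among the complexes, the complex I assembly factors had the lowest ratios of sums: 223 and 194 CPM with PBS (-0.20) and 227 and 179 with ISO (-0.34), with 3 and 6 of 8 past 1.2 fold. Their sum was highest in cluster 5 (299 CPM) and lowest in cluster 3 (89.2 CPM). Cluster 5 held 10.5% of cells in WT+ISO and 3.87% in the library labelled β2AR-/-+ISO. No value at fixed shares was run for this list, so the part of cluster shares was not tested. With ISO, nuclear complex I subunits stood at -0.12, complex III at -0.17, complex IV at -0.13 and complex V at -0.15. With clusters at fixed shares 5 and 14 members were past 1.2 fold, beside 19.0% and 33.4% of all genes.

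**Figure D4:**
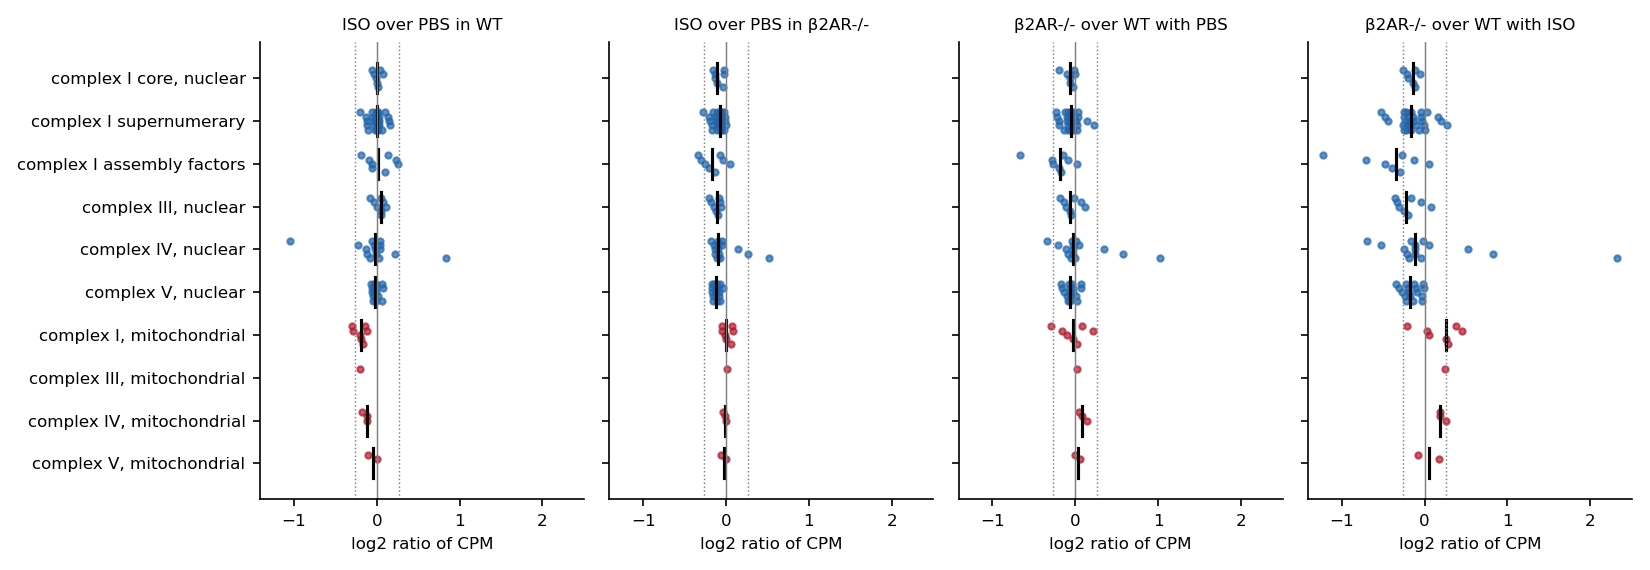
Log2 ratio of CPM for each member with at least 100 UMIs over both libraries, by complex, in the 4 comparisons (blue nuclear, red mitochondrial). Black bars are medians, the dotted lines mark 1.2 fold, and most members lie between them, with 26 of 97 outside in β2AR-/- over WT with ISO and at most 8 in the others.

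Cox7a2l was higher in the libraries labelled β2AR-/- in each of the 7 clusters under both treatments. It had 172, 147, 220 and 212 CPM in the 4 libraries (log2 0.35 with PBS and 0.53 with ISO), so that both libraries labelled β2AR-/- lay above both WT libraries. In the macrophage-like cluster it had 228, 188, 285 and 274 CPM, and in cluster 5 it had 120, 129, 160.5 and 158. With clusters at fixed shares the ratios were 0.27 and 0.38. Ndufv3, a small subunit of the NADH-binding arm of complex I that was singled out for this pattern after its values were seen, was the other member higher in all 7 clusters both times, with 260, 240, 303 and 290 CPM. The complex III subunits Uqcr11 and Uqcrb and the mitochondrial gene mt-Nd3 were lower in all 7 both times. Uqcr11 and Uqcrb were likewise singled out after their values were seen. Uqcrb had 361, 389, 318 and 304 CPM, Uqcr11 had 272, 281, 247 and 223, and mt-Nd3 had 297, 270, 243 and 234. In each comparison alone, 3 members were higher and 5 lower in all 7 clusters with PBS, beside 3.09% and 4.58% of all 6959 genes, and 4 were higher and 18 lower with ISO, beside 5.31% and 10.1% of all 7065. Those alike in both are 2 higher and 3 lower of the 88 members with enough UMIs, beside 1.07% and 1.83% of all 6729 such genes. Cox7a2l lies at chr17:83501917-83514333 and Ndufv3 at chr17:31520115-31531326 (RefSeq, GRCm38.p6).

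Ndufaf4 and Ndufa4 were lower in the libraries labelled β2AR-/-. Ndufaf4 had 21.4, 25.5, 13.4 and 10.9 CPM on 522, 751, 384 and 211 UMIs (log2 -0.67 with PBS and -1.23 with ISO, the lowest ratio of any member both times). In cluster 5 it had 37.2, 42.3, 22.1 and 22.5 CPM, with both WT libraries above the others. Ndufa4 had 455, 531, 358 and 327 CPM (-0.34 and -0.70). The difference was large in the macrophage-like cluster, with 394, 524, 266 and 256 CPM, and small in cluster 5, with 728, 743, 725 and 679. Over all cells Ndufaf4 and Ndufa4 both had their highest level in cluster 5, whose share of cells was lower in both libraries labelled β2AR-/-. Ndufaf5 had 7.71, 8.23, 6.41 and 5.06 CPM. Ndufab1 had 168, 185, 143 and 132 CPM, with cluster 5 at 279, 306, 257 and 243.

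Cox4i2 had the highest ratio of the members past the minimum under both treatments, with 103, 60, 244 and 198 UMIs (4.22, 2.04, 8.54 and 10.2 CPM, log2 1.02 and 2.33). Most of its UMIs lay in the macrophage-like cluster 0, whose share of cells was highest in the libraries labelled β2AR-/-. Within that cluster it stood at 10.6, 5.21, 16.1 and 22.7 CPM, and in cluster 4 at 4.42, 3.27, 8.85 and 9.33. At fixed cluster shares the ratios were 0.77 and 1.57. Macrophage markers summed to 412, 239, 620 and 531 CPM, and all 10 were above WT under both treatments. Cox7a1 had 80, 89, 139 and 104 UMIs (3.28, 3.03, 4.87 and 5.37 CPM, 0.57 and 0.83), and its level was also highest in cluster 0. Dendritic cell markers stood at 1066, 364, 1224 and 911 CPM. The part of these cells in the members' values was not tested beyond the clusters.

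**Figure D5:**
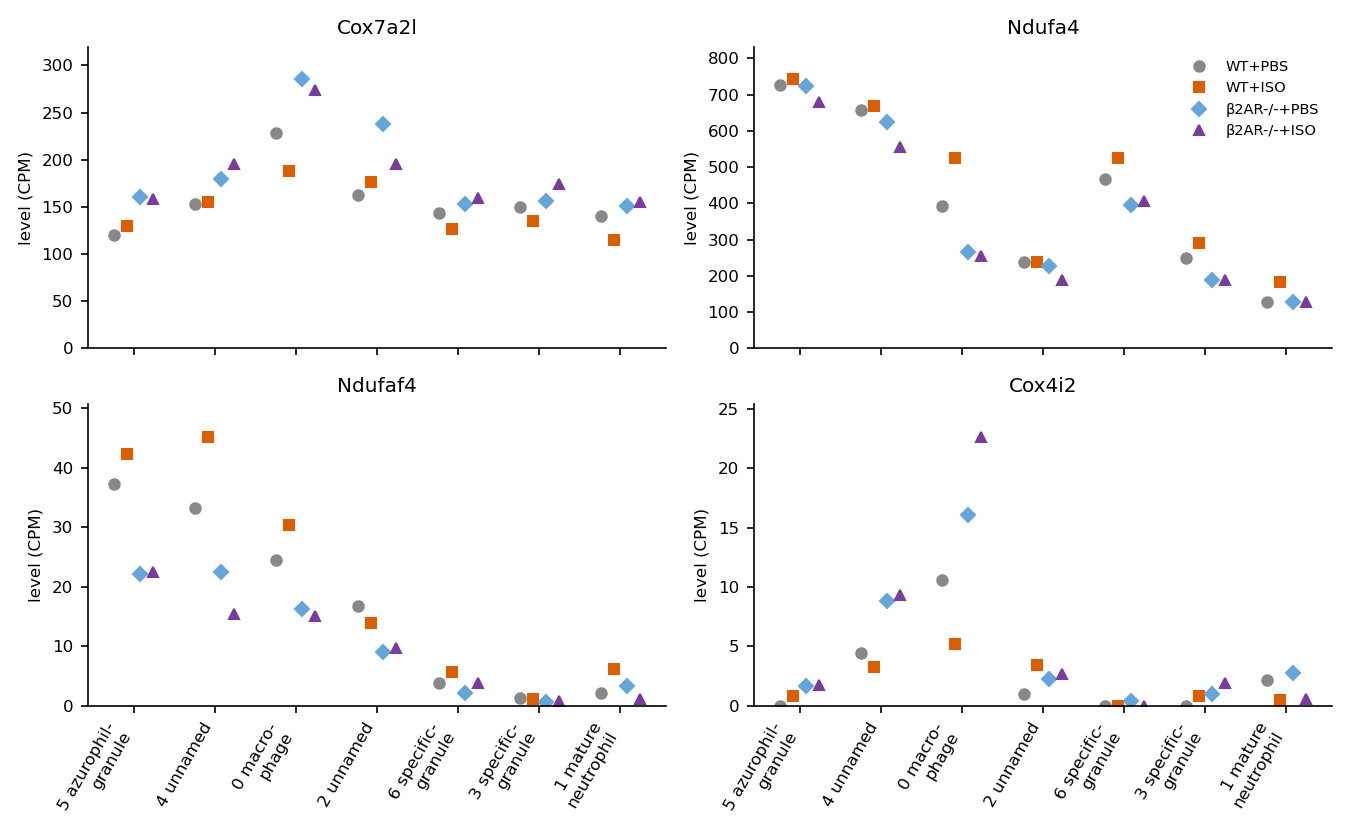
Level in CPM of Cox7a2l, Ndufa4, Ndufaf4 and Cox4i2 in 7 clusters, with 1 point per library. Both libraries labelled β2AR-/- lie above both WT libraries for Cox7a2l in every cluster and below them for Ndufaf4 in clusters 5, 4, 0 and 2, and Cox4i2 reaches 22.7 CPM in cluster 0.

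Of the members of highest UMI count in each nuclear complex, only the assembly factor Ndufaf8 was past 1.2 fold in any comparison, being lower in β2AR-/- over WT with ISO (log2 -0.28). Cox4i1, a nuclear-encoded regulatory subunit of complex IV, had 937, 853, 968 and 885 CPM, lower with ISO in both genotypes (log2 -0.13 each). Atp5e, subunit epsilon of ATP synthase, had 621, 606, 597 and 568 CPM. Uqcrh, the hinge protein of complex III, had 399, 377, 419 and 399. Ndufb7 had 363, 364, 329 and 325 CPM, Ndufs7, which carries an iron-sulfur centre of complex I, 155, 159, 148 and 138, and Ndufaf8 75.6, 72.4, 65.7 and 59.8. Among the principal isoforms, Cox8a had 881, 907, 862 and 834 CPM, Cox7a2 502, 510, 463 and 429, Cox6a1 260, 267, 252 and 240, and Cox6b1 430, 412, 433 and 405.

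Related gene lists are given beside the members, with their summed CPM. Cycs (cytochrome c) and Cyc1 (the cytochrome c1 of complex III, which the name rule does not match), which carry electrons toward complex IV, had 315, 351, 244 and 222 CPM, so the library labelled β2AR-/-+ISO lay at a log2 ratio of -0.66 to WT+ISO. Complex II (4 genes) had 300, 299, 295 and 280, and none of its genes was past 1.2 fold in any comparison. The mitochondrial ribosome (78 genes) had 5869, 6150, 5246 and 4950 CPM. For β2AR-/- over WT with ISO, 24.7% of all 10645 genes were lower and 24.4% higher by at least 1.2 fold. The counts that follow stand beside these shares. In that comparison 55 of the 78 mitochondrial ribosome genes were lower and 1 was higher. The TCA cycle (18 genes) had 1112, 1171, 1001 and 950, with 8 of 17 lower and none higher in that comparison. Glycolysis (19 genes) ran the other way, with 10311, 8844, 12249 and 12191 CPM and 14 of 18 higher and none lower. Regulators of mitochondrial gene expression, such as Tfam and Polrmt, had 387, 380, 371 and 349 CPM. Of these, 7 of 19 were lower and 1 was higher, beside 49.1% of all genes past the fold either way. Other assembly factors had 1845, 1884, 1767 and 1672 CPM, with 20 of 41 lower and 2 higher. In the same comparison 14 of 16 cell cycle genes and 7 of 7 azurophil-granule markers were lower by at least 1.2 fold, and their part in the result was not tested.

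Over the 28 cluster and library sums, the 5 genes outside the members most like the summed nuclear members were Ybx1, Ola1, Chchd2, Eif3e and Psmb2 (Spearman's rho 0.98 for each, among 7624 genes with at least 1000 UMIs). Those most like the summed mitochondrial members were Wdr1, Fam217b, Tent5c, Mical1 and Sp100, with rho of 0.65 to 0.67. The nearest gene to the nuclear members was thus closer than the nearest to the mitochondrial ones, and the mitochondrial sum itself went against the nuclear sum (-0.52).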

How the data were processed

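The authors deposited counts, UMIs per gene and cell, without normalization, made with Cell Ranger (7.0.0 in the file headers, 6.0.0 in the submitters' processing notes, which also name Seurat and the build mm10). Suspensions carried multiplexing tags and were pooled. Whether the count sets, called libraries here, came from separate captures or were split by tag from a pooled one is not stated in the sources used here. In the second case no cell barcode could be shared between them. The 12 tag rows were left out. Treatment of introns and of overlapping genes is not given in the sources used here.

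A minimum of 200 genes and a cap of 10% on the mitochondrial share left 9303 of 9525 cells. UMIs were summed per library, or per cluster and library, and divided by the total. Log2 ratios have exact conditional binomial 95% intervals. A member counted as different past 1.2 fold with at least 100 UMIs over both libraries. Clusters were found with scanpy 1.11.5 (2000 variable genes without the members, 30 principal components, 15 neighbours, Leiden resolution 0.4, seed 0). Scrublet called 17 cells doublets (0.183%), far under the 6% set, so it was not relied on, and doublets may remain. Ratios were also run on simulated counts that hold counting error alone. The planted change lay above the 1.2 fold used, so high recovery was built in, and the run cannot speak to the spread between cultures. For ISO over PBS in WT, 98.0% of 197 genes changed 1.5-fold were recovered among 10745, and 5.04% of unchanged genes were past the fold by counting error.

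Members and lists were chosen with earlier results of these data known. Genes named are the 13 mitochondrial genes, the member with most UMIs per complex, the 3 largest differences each way per comparison, the 5 widest ranges over clusters among members with at least 400 UMIs, tissue isoforms, and others said to be chosen after their values were seen. The level of the targeted gene is not reported here.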

Additional observations from a re-analysis of the deposited data

Results flagged for a closer look

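5 of the named members had ISO ratios of opposite sign in the 2 genotypes with both counting intervals away from 0, and the difference was not tested, since each group has 1 library. Some named members, Ndufaf4 and mt-Nd5 among them, had been picked for extreme ISO ratios, which favours such a pattern. How many of all genes show it was not counted, so the count of 5 has no share to stand beside. The log2 ratio in WT and in the libraries labelled β2AR-/- was -0.30 and 0.058 for mt-Nd5, 0.26 and -0.30 for Ndufaf4, 0.22 and -0.13 for Ndufa4, 0.14 and -0.11 for Ndufab1, and 0.042 and -0.047 for Cox8a. For Ndufab1 the second value was 0.0061 with clusters at fixed shares.

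A signal also stood outside the members. Ndufb1-ps, left out by the rule because of its pseudogene symbol, had 8253, 9688, 10360 and 6798 UMIs in WT+PBS, WT+ISO, β2AR-/-+PBS and β2AR-/-+ISO (338, 330, 363 and 351 CPM). The files list no gene Ndufb1, and whether these UMIs come from a working copy was not tested.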

How the results depend on the processing

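No paired analysis was possible because there is a single library per group. With 1 library per group, nothing measures the spread between cultures, and moves are judged against the counting interval alone. Without the cap on the mitochondrial share, cells with a high share enter unevenly. Genes under 100 UMIs are limited by depth. The cause of the moves was not tested. Called doublets, when removed, left every ratio of the lists within its counting interval. The comparisons stand in the order ISO in WT, ISO in β2AR-/-, β2AR-/- over WT with PBS and with ISO. The log2 ratios of the nuclear members moved as follows. With stricter cells (1000 genes, a 5% cap) the ratios were -0.13 for genotype with ISO. Under median-of-ratios size factors the ratios were 0.018 for ISO in WT (reversed), -0.080 for ISO in β2AR-/-, -0.019 for genotype with PBS and -0.12 for genotype with ISO. When every cell weighed the same the ratios were -0.035 for ISO in WT, -0.12 for ISO in β2AR-/-, -0.031 for genotype with PBS and -0.11 for genotype with ISO. As the median over genes the ratios were -0.058 for genotype with PBS and -0.17 for genotype with ISO. With clusters at fixed shares the ratios were 0.0078 for ISO in WT (reversed), -0.050 for ISO in β2AR-/-, -0.022 for genotype with PBS and -0.079 for genotype with ISO. Without the member with most UMIs the ratios were -0.00057 for ISO in WT and -0.15 for genotype with ISO. The log2 ratios of the mitochondrial members moved as follows. Without the cap the ratios were -0.14 for ISO in WT, -0.0045 for ISO in β2AR-/-, 0.10 for genotype with PBS and 0.24 for genotype with ISO. With stricter cells (1000 genes, a 5% cap) the ratios were -0.16 for ISO in WT, 0.038 for genotype with PBS and 0.19 for genotype with ISO. Under median-of-ratios size factors the ratios were -0.13 for ISO in WT, 0.011 for ISO in β2AR-/- (reversed), 0.086 for genotype with PBS and 0.22 for genotype with ISO. With totals without the mitochondrial genes the ratios were 0.21 for genotype with ISO. When every cell weighed the same the ratios were -0.054 for ISO in WT, -0.044 for ISO in β2AR-/-, 0.10 for genotype with PBS and 0.11 for genotype with ISO. As the median over genes the ratios were -0.16 for ISO in WT, -0.0041 for ISO in β2AR-/-, 0.027 for genotype with PBS and 0.19 for genotype with ISO. With clusters at fixed shares the ratios were -0.088 for ISO in WT, -0.040 for ISO in β2AR-/-, 0.043 for genotype with PBS and 0.091 for genotype with ISO. Without the member with most UMIs the ratios were -0.16 for ISO in WT and 0.21 for genotype with ISO. The counts of members past the fold, 4, 4, 8 and 26, became 19, 26, 28 and 64 at a fold of 1.1, 2, 0, 2 and 5 at 1.5, 2, 2, 5 and 22 with at least 500 UMIs and 4, 4, 5 and 14 with clusters at fixed shares, and stayed within 1.5 times without the cap, with size factors and with a minimum of 1 UMI. The log2 range of the nuclear members over clusters was 1.27 without the cap, 1.38 with the stricter cells, 1.48 without called doublets, after new clustering, 0.92 at a resolution of 0.2, 1.60 at 1.0, 1.49 with 30 neighbours and 1.32 with equal weight per cell. The log2 range of the mitochondrial members over clusters was 0.41 without the cap, 0.28 with the stricter cells, 0.31 without called doublets, after new clustering, 0.51 at a resolution of 0.2, 0.99 at 1.0, 0.28 with 30 neighbours, 0.33 with totals without the mitochondrial genes and 0.83 with equal weight per cell. The difference of ISO ratios of the nuclear members was -0.058 with clusters at fixed shares and -0.081 with equal weight per cell. The difference of ISO ratios of the mitochondrial members was 0.048 with clusters at fixed shares and 0.0093 with equal weight per cell. Chosen after seeing the data, size factors, fixed shares and equal weights were also run for complexes and named members. Of their values, 19 turned sign where the counting interval of the reported ratio lay away from 0, all of them within 0.1 of 0. Under size factors these were 0.0098 for nuclear complex V (ISO in WT), 0.0033 for mitochondrial complex IV (ISO in β2AR-/-) and 0.0084 for mt-Co2 (ISO in β2AR-/-). With fixed shares these were 0.0076 for nuclear complex V (ISO in WT), -0.0070 for mitochondrial complex III (genotype with PBS), -0.061 for mt-Nd1 (genotype with ISO), -0.0070 for mt-Cytb (genotype with PBS), 0.021 for Ndufs7 (genotype with PBS), 0.010 for Atp5e (ISO in WT), 0.048 for Atp5g1 (ISO in WT), 0.0061 for Ndufab1 (ISO in β2AR-/-), 0.013 for Cox6a1 (ISO in β2AR-/-) and 0.0098 for Cox6b1 (ISO in WT). With equal weight per cell these were -0.0084 for nuclear complex III (ISO in WT), 0.0031 for mitochondrial complex I (genotype with PBS), 0.0056 for mitochondrial complex V (ISO in WT), -0.028 for mt-Nd1 (genotype with ISO), 0.0045 for mt-Atp6 (ISO in WT) and 0.054 for mt-Nd4l (ISO in WT). A further 218 values moved outside their counting interval, and 321 stayed within it. Among the complexes, 30 moved under size factors, 28 with fixed shares and 24 with equal weights. Only 2 complex values stayed within the interval with fixed shares and 5 with equal weights. mt-Cytb is the only mitochondrial gene of complex III, so its values enter these tallies both as a complex and as a named member.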
